A study of Caenorhabditis elegans with 18 samples.

Results

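The change that Caenorhabditis elegans goes through between the fourth larval stage (L4) and the adult was measured in N2, the wild-type strain, by comparing all genes between N2 adults and N2 L4 larvae. The comparison holds 4 of the 18 samples of the series: the 2 N2 adult libraries numbered 1 and 2 and the 2 N2 L4 libraries numbered 1 and 2. They were chosen by genotype, stage and a column name that matches 1 sample. Mutant libraries enter only the alternative run with 8 libraries of both genotypes. The series also holds hira-1(-) animals, mutant for a chaperone of the histone variant H3.3, and first-stage larvae. Replicate 3 of each N2 stage is listed in the series and was not analysed here. The labels name no mutant allele or transgene for N2 adults or N2 L4 larvae. Both groups grew at 20°C on agar plates with Escherichia coli OP50 as food. Poly(A) selection preceded library preparation, and reads are paired. The labels give neither the age of the adults nor the time within L4, and they leave it unsaid if the replicates are separate cultures. A p-value below therefore reflects the scatter of these 4 libraries alone, and that scatter may be technical.

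L4 is the last larval stage of a hermaphrodite. In it the germ line makes sperm, the vulva and uterus form, and the epidermis builds the adult cuticle under the old one, which is then shed in the last molt. In the adult the germ line has switched to oocytes, the intestine makes yolk that oocytes take up, and fertilized eggs form a shell in the uterus. Oocytes store messenger RNAs whose translation is held back by RNA-binding proteins until the embryo uses them. Body tissues no longer molt. In RNA of whole animals, a fall of a gene can come from fewer cells of a type or from less RNA per cell, and the share of each tissue depends on the size of all others. These cannot be told apart here.

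The adult libraries held 27030885 and 31174599 estimated counts and the L4 libraries 28061446 and 27086810. Levels are given as CPM, the usual depth-scaled count with TMM library sizes, for a gene across libraries, and as FPKM, which also divides by transcript length, where genes are set beside each other. Stage held 97.1% of the variance of log2 CPM on the first principal component. Spearman correlations across genes were 0.9955 between the adult replicates and 0.9951 between the L4 replicates, and 0.798 to 0.804 between stages. Of the markers of the labelled stages, all 6 vitellogenins were higher in adults. Of the 7 collagens listed for the adult cuticle, 3 were higher and 4 were lower. Of the markers listed for L4, 31 of 33 molting regulators were lower in adults. The major sperm proteins, also listed for L4, went mostly the other way: of 32 tested, 24 were higher in adults, 3 were lower and 5 were not called. Early embryo genes, listed as markers of eggs inside adults, made up 0.0106% and 0.0104% of adult counts, against 0.011% and 0.013% of L4 counts. The L4 share rested largely on sdz-24, which fell and held most of the summed CPM of tested members at L4. Of the 29 members tested 22 were higher in adults and 6 were lower. Genes listed as male markers made up 0.0102% and 0.00942% of adult counts, against 0.0171% and 0.0168% of L4 counts. This share rested largely on dmd-7, with 71.1 and 62.3 CPM in adults, against 83.5 and 82.5 CPM at L4. Next was dmd-6, with 22.9 and 22.6 CPM in adults, against 53 and 46.8 CPM at L4. Whether the share follows the number of males was not tested.

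Most genes differed between the stages. Of 15839 genes tested with edgeR's quasi-likelihood test, 13099 (82.7%) passed an adjusted p of 0.05, the threshold for every call below. In adults 6104 genes were higher (38.5% of those tested) and 6995 were lower (44.2%). A change of at least 4-fold was called for 1233 higher genes (7.78%) and 2511 lower genes (15.9%). Large changes reached both ends of the range: 261 genes were at least 64-fold higher and 424 at least 64-fold lower. Another 2740 genes were not called, and 2386 of these differed by less than 1.5-fold in their fitted value. The median log2 fold change, adult over L4, was -0.15 over all genes, with an interquartile range of -1.32 to 0.88. With RLE scaling in place of TMM this median was -0.02, and with library totals -0.31, so small changes are read against that shift. A number in brackets after a gene name is its log2 fold change, and a median given with a list is over its tested members. With shares of this size called, a list of genes is described by its counts in both directions and by its median beside these values.

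**Figure D1:**
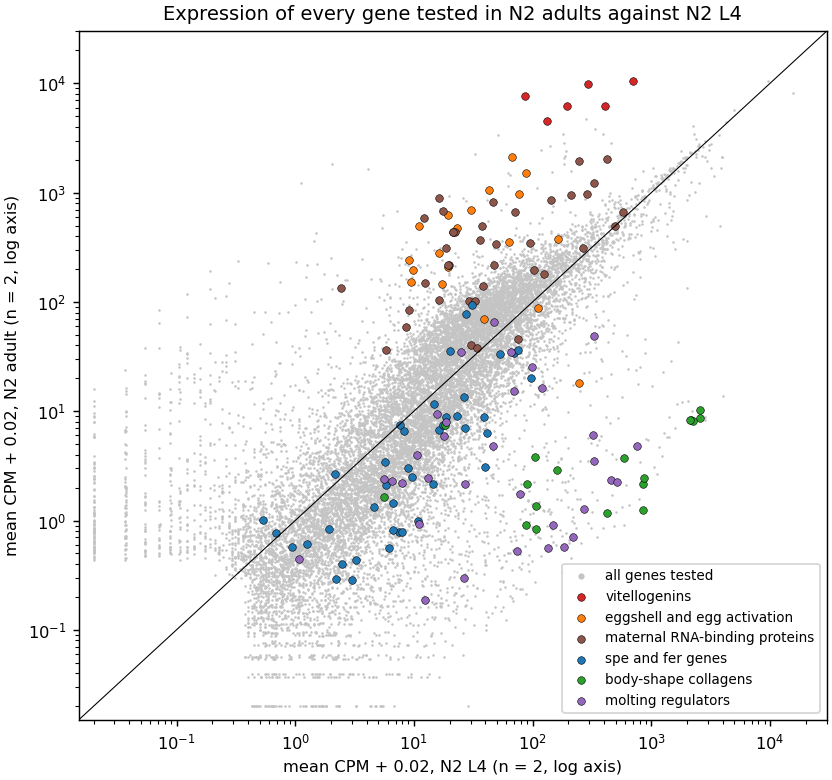
Mean CPM in N2 adults (y axis) against N2 L4 larvae (x axis) for each of 15839 genes tested, both on log axes after adding 0.02, with 6 gene lists in colour and a line at equal values. Vitellogenins, eggshell genes and maternal RNA-binding protein genes lie mostly above the line, and body-shape collagens, molting regulators and most spe and fer genes lie below it.

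The genes that rose by the largest factors included collagen genes, uterine lumen protein genes and C-type lectin genes. The uterine lumen protein gene ule-1 (W03F11.1) had 191 and 195 CPM in adults, against 0.205 and 0.138 CPM at L4 (log2 fold change 10.10 with an SE of 0.12, adjusted p = 7.0e-11). Another uterine lumen protein gene, ule-5 (Y62H9A.6), had 435 and 429 CPM in adults, against 1.5 and 1.45 CPM at L4 (log2 fold change 8.19). The collagen gene col-143 (T15B7.3) had 1270.4 and 1196 CPM in adults, against 1.23 and 0.969 CPM at L4 (log2 fold change 10.13 with an SE of 0.13). For all 3 genes both adult libraries stood far above both L4 libraries. Other collagen genes at this end were col-8 (log2 fold change 9.82), col-95 (9.53), col-135 (10.09) and col-101 (8.67), together with the C-type lectin gene clec-223 (9.16). The gene cdc-25.3 (ZK637.11) encodes a phosphatase of the family that activates cyclin-dependent kinases. It had 38.6 and 36.6 CPM in adults, against 0 and 0.0692 CPM at L4, a ratio of 1090 with an exact 95% interval of 302 to 9020 that covers counting error only, since the L4 libraries held 2 counts. The C-type lectin gene clec-190 had 1 count at L4, and its ratio was 1390 (interval 249 to 54900). Genes known by a sequence name only were as large: ZK813.1 had 236 and 242 CPM in adults, against 0.273 and 0.346 CPM at L4 (log2 fold change 9.57). Of the genes tested, 96 had no count in either L4 library. These passed the filter only through their adult counts, so a call of higher was nearly fixed in advance. All 96 were called higher in adults. One of them was sea-1 (F19B10.9), a T-box gene that signals the number of autosomes to the sex determination pathway. It had 16.6 and 15.4 CPM in adults, which is at least 156-fold higher against a floor of 3 counts per L4 library.

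The genes that fell by the largest factors included collagens of the cuticle and hedgehog-related genes. The cuticle collagen gene sqt-2 (C01B12.1), mutants of which are squat, had 0.942 and 1.52 CPM in adults, against 835 and 868 CPM at L4 (log2 fold change -9.41 with an SE of 0.14, adjusted p = 9.7e-11). The blister collagen genes bli-1 (C09G5.6) and bli-2 (F59E12.12) build the struts between the layers of the adult cuticle. For bli-1 the adult libraries had 1.61 and 1.48 CPM and the L4 libraries 755 and 835 CPM (log2 fold change -9.01), and for bli-2 they had 1.1 and 1.65 CPM and 588 and 708 CPM (log2 fold change -8.86). Both stages lay far apart for all 3 genes. Among other named genes, the log2 fold changes were -9.09 for dbd-8, -8.91 for chtb-1, -8.73 for the mucin-like gene osm-8, -8.68 for dao-4 and -8.68 for gtnt-16. The replicates of chtb-1 differed, with 264 and 158 CPM at L4 (SE 0.61, adjusted p = 0.00155). The hedgehog-related genes grl-7 (-8.85) and wrt-4 (-8.70) and the lipase-related gene lips-9 (-9.05) also fell, and without adult replicate 2 their log2 fold changes were -9.56, -9.30 and -10.40. For lips-9 the value without adult replicate 1 was -8.38. Of the genes tested, 60 had no count in either adult library, and these passed the filter only through their L4 counts. A call of lower was thus nearly fixed in advance, and 59 were called lower. The gene gtnt-17 (D1014.6) was 1 of them, with 26.2 and 31.3 CPM at L4, and was at least 263-fold lower in adults against a floor of 3 counts per adult library. The unnamed gene K01D12.8 had 2 counts in adults and 26.2 and 26.1 CPM at L4, an L4 level 721 times that in adults (interval 199 to 5960, counting error only).

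Measured by how much of the library they moved, the changes rested on yolk and collagen transcripts. The 12 largest gains in CPM were all 6 vitellogenin genes and 6 collagen genes (col-124, col-181, col-119, col-20, col-122 and col-140). Among the 12 largest losses were the collagen genes col-73, col-71, col-138, col-38, rol-1, dpy-4 and dpy-13, the muscle myosin gene unc-54, the protein disulfide isomerase gene pdi-2 and the aspartic protease gene asp-1. The unnamed gene E01G4.6 (-8.39) and the ribosomal RNA gene rrn-3.1 complete these 12. For rrn-3.1 the libraries had 12401 and 3922 CPM in adults, against 18646 and 12779 CPM at L4 (log2 fold change -0.95, adjusted p = 0.352). Ribosomal RNA escapes poly(A) selection to a varying extent, and without adult replicate 1 this gene was called (log2 fold change -1.94), while without adult replicate 2 its log2 fold change was -0.32 (adjusted p = 0.263). Per transcript length, the translation elongation factor gene eef-1A.1 was the most abundant messenger RNA at both stages, with a mean of 6368 FPKM in adults and 6526 FPKM at L4. The next in adults was col-124 with 4540.2 FPKM, against 303 FPKM at L4. The collagen gene col-73 had 13.3 FPKM in adults and 4361 FPKM at L4, while the fatty acid binding protein gene far-2 had 3489 FPKM in adults and 4860.4 FPKM at L4. Ribosomal protein genes filled most other places among the 10 most abundant at each stage.

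**Figure D2:**
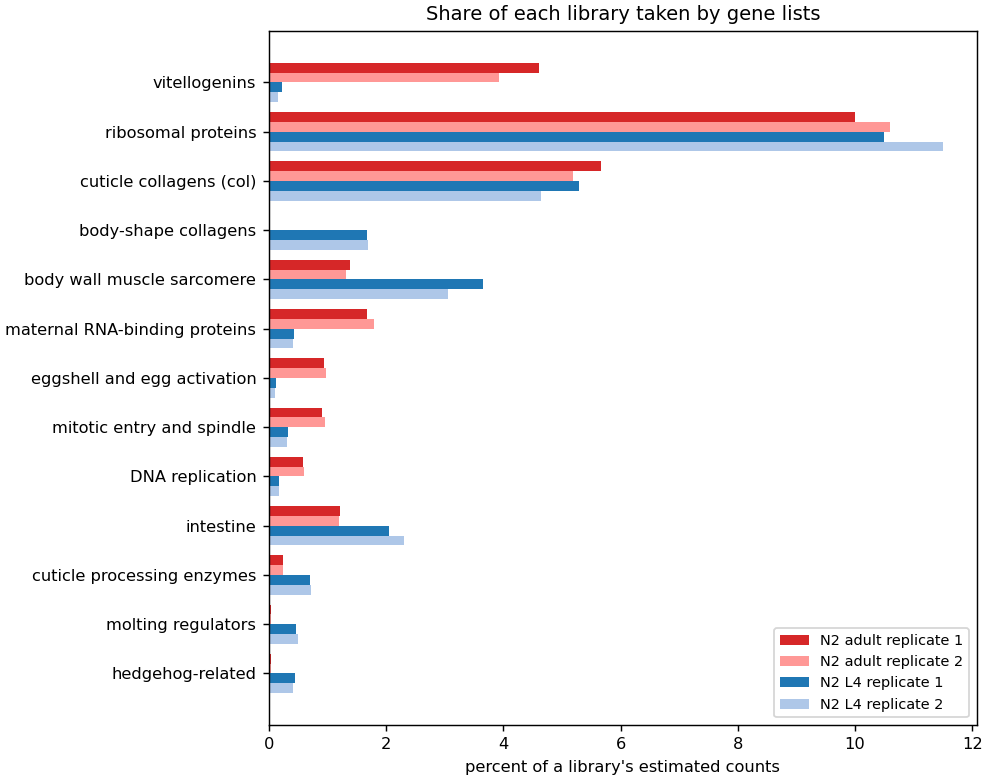
Percent of each library's estimated counts (x axis) taken by 13 gene lists (y axis), with the N2 adult libraries in red and the N2 L4 libraries in blue. Vitellogenins took 4.61% and 3.92% of adult counts, against 0.228% and 0.156% of L4 counts, while body-shape collagens took 0.00647% and 0.00777% in adults, too little to see, against 1.68% and 1.69% at L4.

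Yolk transcripts rose together. Vitellogenins are the yolk proteins, made in the intestine and carried to the oocytes. All 6 genes were higher in adults (median log2 fold change 5.03), and each passed the 4-fold mark. The largest change was in vit-5 (C04F6.1), with 8382 and 7096 CPM in adults, against 108 and 63.6 CPM at L4 (log2 fold change 6.49 with an SE of 0.32, adjusted p = 7.7e-06). The gene vit-2 (C42D8.2) had 10875 and 8931 CPM in adults, against 378 and 211 CPM at L4 (log2 fold change 5.07 with an SE of 0.34), and vit-6 (K07H8.6) had 11450.1 and 9537 CPM, against 838 and 574 CPM (log2 fold change 3.89). All adult values exceeded all L4 values, and at each stage the first library was above the second for each of these genes. The genes vit-3, vit-4 and vit-5 are near-identical, so the counting may have divided their reads by its model. The partner of yolk on the oocyte side moved as well: rme-2 (T11F8.3), the yolk receptor, had 808 and 913 CPM in adults, against 46.2 and 37.1 CPM at L4 (log2 fold change 4.37 with an SE of 0.12, adjusted p = 1.6e-08). Of 10 genes for uptake and lipoprotein assembly, rme-2 among them, 5 were higher, 1 was lower and 4 were not called (median 0.27). The other rises were small, such as the endosomal GTPase genes rab-5 (0.69) and rab-7 (0.77) and the endocytic recycling gene rme-1 (0.48). The gene that was lower was dsc-4 (K02D7.4), which encodes the microsomal triglyceride transfer protein, at 52.4 and 52.4 CPM in adults, against 172 and 181 CPM at L4 (log2 fold change -1.76).

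Genes for the eggshell and for egg activation rose, most of them by more than 4-fold. Of 19 members 17 were higher, 15 of them by at least 4-fold, and 2 were lower (median 4.09). The egg-1 and egg-2 genes encode receptor-like proteins of the oocyte surface needed for fertilization, and egg-2 (R01H2.3) had 243 and 238 CPM in adults, against 9.93 and 8.27 CPM at L4 (log2 fold change 4.72 with an SE of 0.09). The pseudophosphatase genes egg-3 (4.31) and egg-5 (4.09) and the chitin synthase gene chs-1 (4.37), which makes a layer of the shell, rose with it. The gene cpg-2 (B0280.5), a chondroitin proteoglycan of the shell, had 2061 and 2148 CPM in adults, against 74.3 and 61 CPM at L4 (log2 fold change 4.96). Those that were lower are numbered in the same proteoglycan class: cpg-7 (K09E4.6) had 18 and 17.9 CPM in adults, against 252 and 238 CPM at L4 (log2 fold change -3.77), and cpg-9 had a log2 fold change of -0.34. The cytochrome genes cyp-31A2 (3.46) and cyp-31A3 (2.65), which act in making the lipid barrier of the egg, rose as well.

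RNA-binding proteins that hold maternal messages in oocytes rose with few exceptions. Of 40 genes listed, 39 were tested, 36 were higher (25 by at least 4-fold), 1 was lower and 2 were not called (median 2.69). The list also holds genes of germline stem cells, among them glp-1, which encodes a receptor and not an RNA-binding protein. The Pumilio family gene puf-5 (F54C9.8), which acts in oocyte formation, had 883 and 902 CPM in adults, against 16.9 and 15.3 CPM at L4 (log2 fold change 5.79 with an SE of 0.09, adjusted p = 1.1e-10). The oocyte maturation gene oma-2 (ZC513.6) had 580.1 and 582 CPM in adults, against 13.2 and 11.1 CPM at L4 (log2 fold change 5.58). The Nanos family gene nos-2 (ZK1127.1), a maternal factor of the embryonic germ line, had 137 and 132 CPM in adults, against 2.66 and 2.15 CPM at L4 (log2 fold change 5.80). Replicates lay close together and the stages far apart for these genes. Large rises were also found for pos-1 (5.28), mex-6 (4.36), spn-4 (4.16) and mex-3 (3.72), which pattern the early embryo. Genes that act in germline stem cells ranged widely: sygl-1 (2.69), glp-1 (2.18), lst-1 (1.80) and fbf-1 (0.42) were higher, and fbf-2 (0.16, adjusted p = 0.105) was not called. The member that was lower was puf-9 (-0.74), a Pumilio gene with a role in the epidermis.

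P granules, the RNA-rich bodies of germ cells, showed the same direction with a wide range of sizes. Of 21 genes 19 were higher and 2 were not called (median 1.49). The largest rises were the 4 meg genes, whose products organize granules in the embryo: meg-1 (K02B9.1) had 170.2 and 168 CPM in adults, against 0.99 and 1.42 CPM at L4 (log2 fold change 7.13 with an SE of 0.11), and meg-3 had a log2 fold change of 6.81. Other granule genes ranged from glh-2 (2.37), deps-1 (1.77) and glh-3 (1.69) through pgl-3 (1.10) and pgl-1 (0.78) to the Piwi gene prg-1 (0.54). The helicase gene glh-1 (0.16, adjusted p = 0.0777) was not called.

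**Figure D3:**
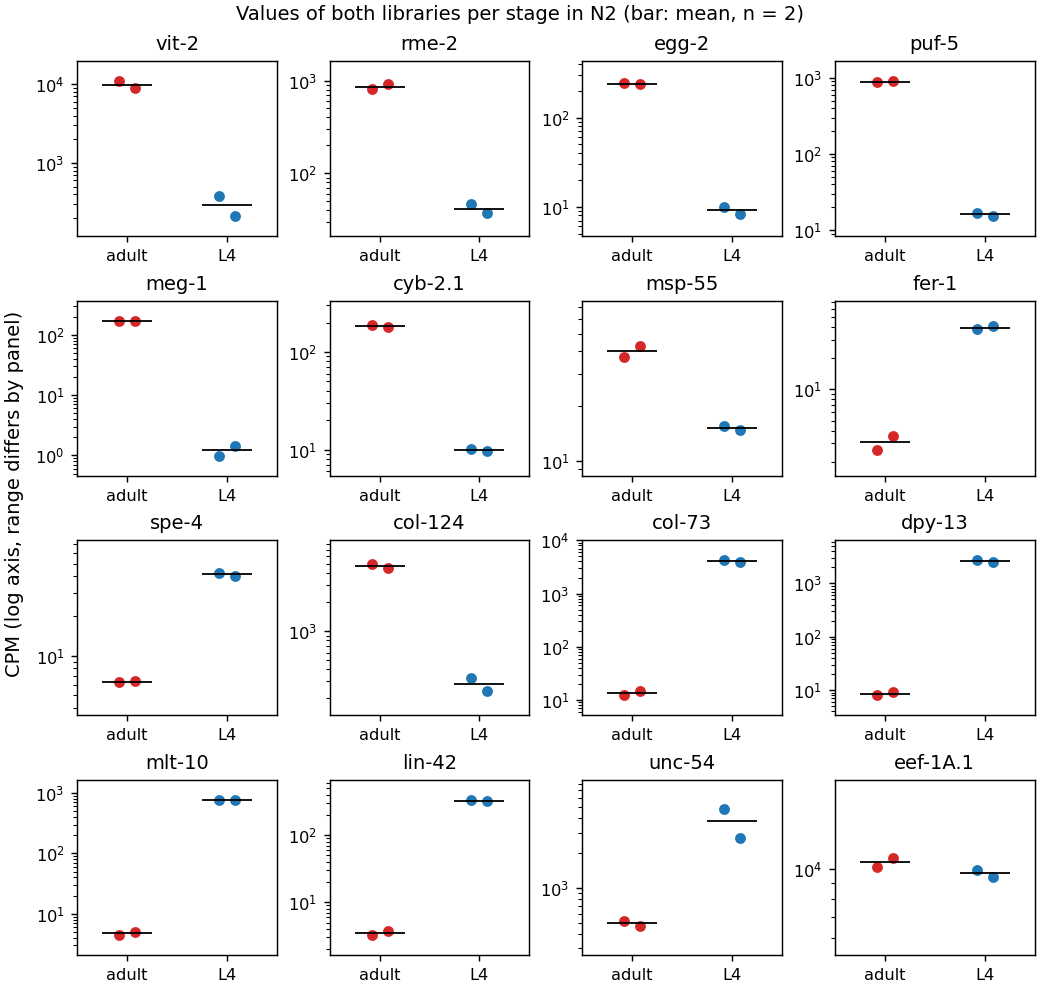
CPM of 16 genes in both libraries of each stage, N2 adult left and N2 L4 right, with a bar at the mean of 2 libraries and a log axis whose range differs by panel. The stages do not overlap in any panel, eef-1A.1 included, although its log2 fold change of 0.12 was not called, and vit-2 and unc-54 are the panels with the widest gaps between L4 replicates.

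Meiosis, replication and mitosis genes were higher in adults with few exceptions. Of 45 genes of the meiotic axis, synapsis and recombination, 44 were higher and 1 was not called (median 1.47). The nuclear envelope gene sun-1 (F57B1.2), which tethers chromosomes in pairing, had 137 and 137 CPM in adults, against 38.1 and 38.3 CPM at L4 (log2 fold change 1.84 with an SE of 0.06). Axis genes included him-3 (0.72), htp-3 (0.79) and htp-2 (1.35), and crossover genes ranged from msh-4 (-0.18, adjusted p = 0.782), the member that was not called, through msh-5 (1.02) to cosa-1 (2.08) and zhp-3 (2.15). Of 42 DNA replication genes 41 rose, 1 was not called and no member fell (median 1.83). The replicative helicase subunit gene mcm-3 (C25D7.6) had 300.4 and 310.5 CPM in adults, against 49.3 and 52.1 CPM at L4 (log2 fold change 2.59), and the ribonucleotide reductase gene rnr-2 had a log2 fold change of 2.69. Of 56 genes of mitotic entry and the spindle 54 were higher, 1, cdc-25.4 (-2.09), was lower and 1 was not called (median 1.60). The B-type cyclin gene cyb-2.1 (Y43E12A.1) had 188 and 181 CPM in adults, against 10.1 and 9.56 CPM at L4 (log2 fold change 4.24 with an SE of 0.07). Close behind were cyb-2.2 (4.23), which is nearly identical to it, cyb-3 (3.71) and mei-2 (3.87), a subunit of the katanin that shapes the meiotic spindle of the oocyte.

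Histone and histone chaperone genes moved in both directions. Of 13 genes for H3.3 and histone chaperones, 12 were tested, 10 were higher and 2 were lower (median 1.48). The 8 chaperone genes tested rose, with 2.09 for chaf-1 and 1.96 for rba-1, both tied to assembly of nucleosomes behind the replication fork, and 2.08 for asfl-1 and 1.43 for unc-85, which encode ASF1 proteins. Among the H3.3 genes, his-74 (W05B10.1) had 171 and 175 CPM in adults, against 60.9 and 58.4 CPM at L4 (log2 fold change 1.54), and his-72 rose by 0.50 on the log2 scale. In the other direction, his-71 (F45E1.6) had 20.8 and 17.9 CPM in adults, against 60.6 and 63.9 CPM at L4 (log2 fold change -1.69), and his-70 had a log2 fold change of -3.01. The core histones, which are made in S phase, were mostly lower: of 53 tested among 65, 32 were lower, 9 were higher and 12 were not called (median -1.50). Most messages of core histones carry no poly(A) tail, and after poly(A) selection the whole list took 0.0146% and 0.014% of adult counts, against 0.0237% and 0.026% of L4 counts. The part of poly(A) selection in the differences was not tested. Of the 53, 23 share their exact values with another member, such as his-19, his-21, his-51 and his-53, so these are not separate measurements.

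Sperm genes moved in both directions. Of 41 spe and fer genes, which act in forming and activating sperm, 32 were lower, 4 were higher and 5 were not called (median -1.36). The ferlin gene fer-1 (F43G9.6), needed for fusion of sperm organelles with the membrane, had 2.59 and 3.57 CPM in adults, against 38.3 and 40.6 CPM at L4 (log2 fold change -3.67 with an SE of 0.14, adjusted p = 2.2e-08). The presenilin gene spe-4 (ZK524.1) had 6.24 and 6.4 CPM in adults, against 42.3 and 40.4 CPM at L4 (log2 fold change -2.71). The members that were higher include spe-39 (1.59), which acts in vesicle traffic in many cells, and the zinc transporter gene zipt-7.1 (1.51). The Argonaute genes of sperm formation, alg-3 (-2.43) and alg-4 (-2.73), fell, and so did fog-3 (-2.81), which directs germ cells to the sperm fate. Their list of 14 small RNA and sperm transcription genes had 8 higher and 4 lower (median 1.10), and the higher ones are small RNA pathway genes such as ergo-1 (1.78) and rde-3 (2.48) together with fog-1 (1.53).

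Most major sperm protein genes were higher in adults. They encode the small cytoskeletal protein that moves nematode sperm and that also signals to oocytes. Of 35 genes 32 were tested, 24 were higher, 3 were lower and 5 were not called (median 0.69), and none of the rises reached 4-fold. The gene msp-55 (C09B9.6) had 37.4 and 42.8 CPM in adults, against 15.6 and 14.7 CPM at L4 (log2 fold change 1.40 with an SE of 0.10), and msp-76 had a log2 fold change of 1.03. The lower members were msp-71 (F59A6.8), which is annotated as a pseudogene, and the low-level genes msp-42 and msp-74. For msp-71 the libraries had 1.02 and 1.35 CPM in adults, against 12.1 and 10.5 CPM at L4. Members are nearly identical in sequence, so reads may have been divided among them, but summed over the list the adult libraries had 1708 and 1882 CPM and the L4 libraries 1222 and 1060 CPM. Related sperm families (MSP-domain, ssp, nspd and others) had 18 higher, 6 lower and 8 not called among 32 tested (median 0.45). In that set ssp-37 (W02D9.5) had 9.42 and 8.49 CPM in adults and no count at L4, at least 86.8-fold higher in adults. Under a test against a minimum change of 1.5-fold the higher counts were 14 for the major sperm proteins and 8 for the related families.

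Sex determination genes were mostly higher. Of 22 tested among 23, 17 were higher, 3 were lower and 2 were not called (median 1.06). In the germ line pathway fem-3 (C01F6.4), which promotes sperm and is held back by translation control in the oocyte phase, had 65.6 and 64.3 CPM in adults, against 7.51 and 7.17 CPM at L4 (log2 fold change 3.15 with an SE of 0.08). The F-box gene fog-2 (2.12), the phosphatase gene fem-2 (1.53) and the splicing genes mog-1 (1.08) and mog-3 (1.38) were higher, while the terminal regulator tra-1 (-0.90) was lower.

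Of 61 early embryo genes, 29 had enough counts for the test, and 22 of these were higher, 6 were lower and 1 was not called (median 3.43, or 2.98 with genes at no count set to their floor). A filter that keeps a gene if it is high at either stage favours such differences, and most levels were low. The T-box gene tbx-36 (ZK829.5) had 13.7 and 13.4 CPM in adults, against 0.102 and 0.173 CPM at L4 (log2 fold change 6.58). The embryonic transcript pes-10 had 122 counts in adults and 1 at L4 (ratio 129, interval 22.7 to 5120). The endoderm and mesoderm specification genes end-1, end-3, med-1 and med-2 did not reach the test. Summed over tested members the adult libraries had 106.9 and 103.9 CPM and the L4 libraries 104.9 and 121.2 CPM, and sdz-24, which fell, held 19.2 and 18.6 CPM of these sums in adults and 60.5 and 77.2 CPM at L4 (log2 fold change -1.87). With a minimum of 1 CPM in 2 libraries, 9 members were called higher, and with limma on the deposited FPKM values 11. Whether embryos contribute to the oocyte and cell cycle changes above was not tested. Of 19 genes listed as male markers 9 were tested, 7 were lower and 2 were not called (median -1.13). How far the listed genes are specific to males was not tested. The largest falls were in mab-3 (-2.72), a gene known to repress yolk genes in the male intestine, and dmd-4 (-3.02 with an SE of 0.56). The level of dmd-4 was low, with 0.0785 and 0.0674 CPM in adults, against 0.717 and 0.519 CPM at L4. Without adult replicate 2 the number called lower was 3. The male neuron genes pkd-2 and lov-1 had too few counts for the test. The part of males in the sperm gene changes was not tested.

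**Figure D4:**
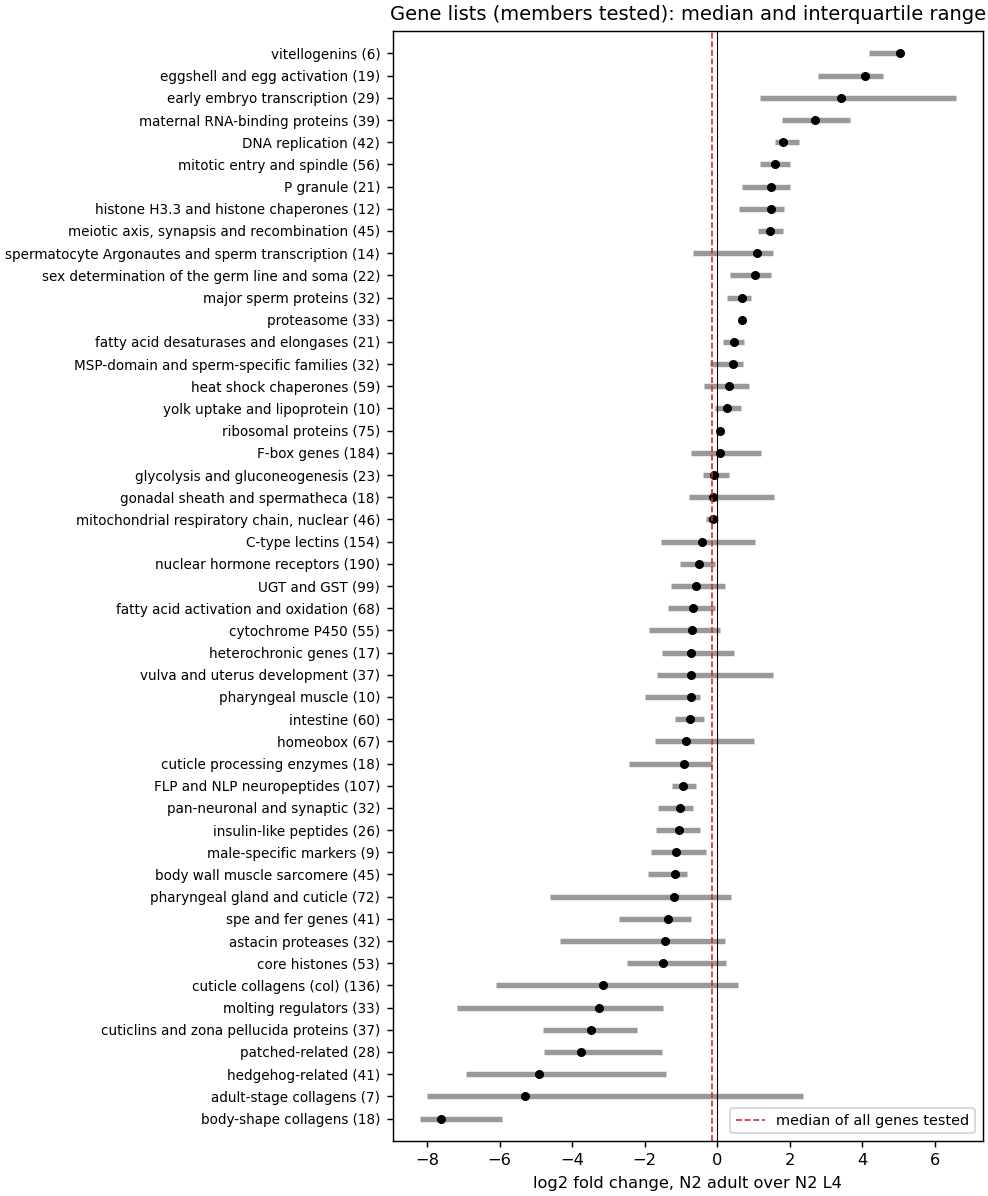
Median (point) and interquartile range (bar) of the log2 fold change, N2 adult over N2 L4 (x axis), for each gene list with tested members (y axis, number tested in brackets). The dashed line marks the median of all genes tested, -0.15; vitellogenins lie at 5.03 and body-shape collagens at -7.63.

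Collagen genes of the cuticle moved in both directions. Of 159 col genes 136 were tested, 34 were higher (30 by at least 4-fold), 85 were lower (77 by at least 4-fold) and 17 were not called (median -3.14, or -3.05 with genes at no count set to their floor). Yet the list took 5.66% and 5.18% of adult counts, against 5.29% and 4.65% of L4 counts. Per transcript length, the most abundant collagen in adults was col-124 (C24F3.6), with 4958 and 4488 CPM in adults, against 329 and 237 CPM at L4 (log2 fold change 4.06 with an SE of 0.17). Its counterpart at L4 was col-73 (F11G11.12), with 12.3 and 14.9 CPM in adults, against 4195 and 3862 CPM at L4 (log2 fold change -8.20 with an SE of 0.14). Both stages were far apart for each gene, and in both genes replicate 1 of L4 was above replicate 2. The gene col-119 (6.07) rose and the genes col-175 (-7.94) and col-38 (-7.79) fell. Members of this class share repeats, which limits how firmly reads are placed.

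The collagens listed for the adult cuticle split. The gene col-19 (ZK1193.1), a marker of the adult epidermis, had 2524 and 2358 CPM in adults, against 139 and 96.6 CPM at L4 (log2 fold change 4.38 with an SE of 0.18, adjusted p = 6.6e-07). With it rose col-7 (2.53) and col-62 (2.18). The other 4 of the 7, bli-1, bli-2, bli-6 (-5.29) and col-63 (-7.14), were lower in adults. Body-shape genes, named for the dumpy, roller, squat and long mutants, fell: 18 of 18 tested were lower, 16 of them by at least 4-fold (median -7.63). One of the 18, rol-3, encodes a receptor tyrosine kinase and not a collagen, and it had the smallest change (log2 fold change -1.30). The gene dpy-13 (F30B5.1) had 8.05 and 9.17 CPM in adults, against 2695 and 2480.3 CPM at L4 (log2 fold change -8.23 with an SE of 0.12). The furrow collagens fell by less on the log2 scale than several of the others, with -7.03 for dpy-7, -6.58 for dpy-3, -6.34 for dpy-2 and -4.80 for dpy-10, beside -8.65 for rol-8, -8.50 for rol-6 and -8.47 for sqt-1.

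**Figure D5:**
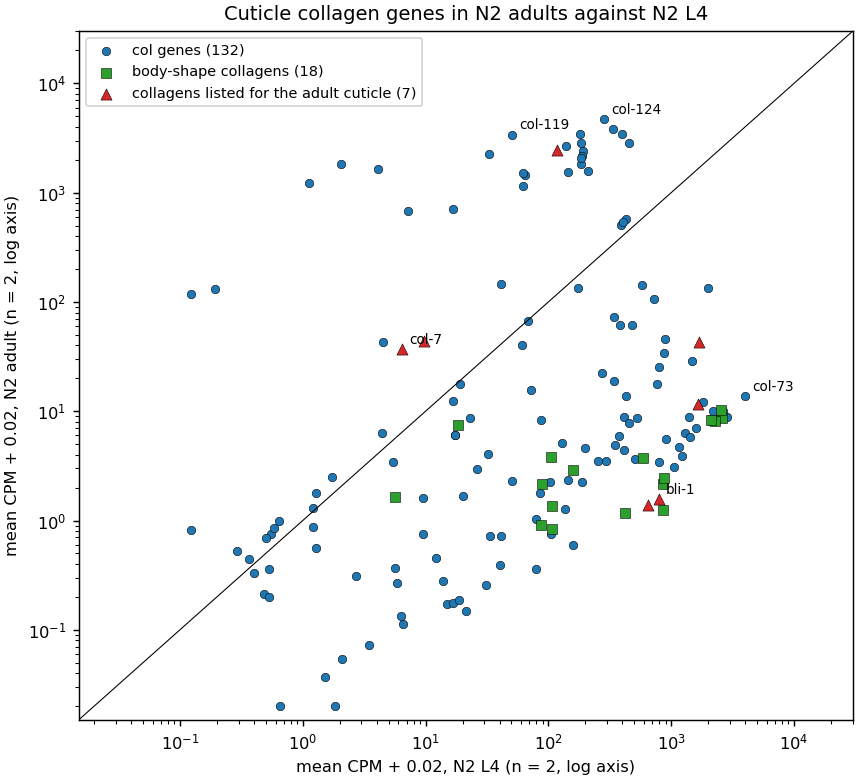
Mean CPM plus 0.02 in N2 adults (y axis) against N2 L4 larvae (x axis), log axes, for 132 col genes, 18 body-shape collagens and 7 collagens listed for the adult cuticle, with a line at equal values. Points fall into a set above the line led by col-124 and a larger set below it led by col-73, and all 18 genes of the body-shape list lie below.

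Most enzymes and other proteins of the cuticle were lower as well. Of 18 collagen processing enzymes 12 were lower, 1 was higher and 5 were not called (median -0.92). The prolyl hydroxylase subunit gene dpy-18 (Y47D3B.10) had 29.4 and 28.1 CPM in adults, against 404 and 367 CPM at L4 (log2 fold change -3.75), and its partners phy-2 (-2.47) and pdi-2 (-2.26) fell too. The pro-collagen convertase gene bli-4 was not called (0.12, adjusted p = 0.0682). Cuticlins and zona pellucida proteins, which form other layers of the cuticle and the lateral ridges, were lower in 34 of 37 tested and higher in none (median -3.48), with cut-2 (F53F1.5) at 1.92 and 2.29 CPM in adults, against 675 and 552 CPM at L4 (log2 fold change -8.17). Astacin proteases had 20 lower and 7 higher of 32 tested (median -1.44). The molting proteases nas-37 (-1.90) and nas-36 (-4.59) fell, while nas-20 (T11F9.3) had 53.2 and 53.1 CPM in adults, against 1.71 and 1.77 CPM at L4 (log2 fold change 4.93).

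Molting regulators fell with 2 exceptions. Of 33 genes 31 were lower, 21 by at least 4-fold, and 2 were higher (median -3.25). The gene mlt-10 (C09E8.3), expressed in the epidermis in each molt, had 4.51 and 4.99 CPM in adults, against 768 and 755 CPM at L4 (log2 fold change -7.32 with an SE of 0.09, adjusted p = 7.0e-11). The period homolog lin-42 (F47F6.1), which times molts and oscillates in larvae, had 3.3 and 3.71 CPM in adults, against 336 and 319.7 CPM at L4 (log2 fold change -6.54). The lipocalin genes lpr-3 (-8.40) and lpr-5 (-7.40), the protease inhibitor gene mlt-11 (-7.72) and the peptidase-like gene acn-1 (-5.76) fell in step. The molting transcription factors differed: nhr-25 (-1.23), blmp-1 (-2.20), grh-1 (-3.64) and myrf-1 (-2.89) were lower, whereas nhr-23 (C01H6.5), which with lep-2 (0.46) was higher, had 63.2 and 67.5 CPM in adults, against 50.8 and 43.1 CPM at L4 (log2 fold change 0.48 with an SE of 0.08, adjusted p = 5.8e-04).

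Hedgehog-related and patched-related proteins, secreted and membrane proteins that act in molting and surface formation, mostly fell with them. Of 41 hedgehog-related genes tested among 60, 32 were lower and 5 were higher (median -4.90). The gene grl-5 (Y47D7A.5) had 0.864 and 0.809 CPM in adults, against 309 and 309.8 CPM at L4 (log2 fold change -8.53 with an SE of 0.09), and wrt-6 had a log2 fold change of -8.05. Of 28 patched-related genes tested 24 were lower and 4 were higher (median -3.77), with ptr-4 (C45B2.7) at 1.02 and 1.48 CPM in adults, against 204 and 226 CPM at L4 (log2 fold change -7.40). The gene ptc-1, which acts in dividing the germ line into cells, was on the other side, with 756 and 768 CPM in adults, against 150.4 and 144 CPM at L4 (log2 fold change 2.37).

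Heterochronic genes, which set the order of larval stages, were mixed. Of 17 genes 10 were lower, 5 were higher and 2 were not called (median -0.73). The zinc finger gene lin-29 (W03C9.4) and its cofactor gene mab-10, which drive the switch of the epidermis to the adult, were lower in adults: lin-29 had 6.91 and 6.44 CPM in adults, against 33.2 and 34.8 CPM at L4 (log2 fold change -2.35), and mab-10 had a log2 fold change of -2.14. Among early timing genes lin-14 (-1.27) and hbl-1 (-1.02) were lower too, whereas lin-28 (1.30) was higher. Those that rose also include lin-41 (C12C8.3), with 211 and 224 CPM in adults, against 20.9 and 18.3 CPM at L4 (log2 fold change 3.47), a gene that also acts in oocytes.

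The vulva, uterus and somatic gonad gave both directions. Of 37 vulva and uterus genes 20 were lower, 15 were higher and 2 were not called (median -0.73). Patterning genes of the vulva such as egl-17 (-2.91), cog-1 (-2.74), lin-11 (-1.93) and lin-39 (-0.89) were lower, and lin-11 had 2.71 and 2.8 CPM in adults, against 11.2 and 9.83 CPM at L4. All 8 sqv genes, named for the collapsed vulva of their mutants and also needed for glycosaminoglycans of the eggshell, were higher, from 0.89 for sqv-7 to 2.39 for sqv-5 on the log2 scale. The EGF gene lin-3 (F36H1.4), the inducer of the vulva, had 56.1 and 53.7 CPM in adults, against 7.48 and 7.2 CPM at L4 (log2 fold change 2.90 with an SE of 0.09), and the Notch ligand gene apx-1 had a log2 fold change of 2.60. Of 18 genes of the gonadal sheath and spermatheca 8 were higher, 8 were lower and 2 were not called, with a median of -0.11 that is 0.03 with RLE scaling. All 5 innexin genes of the gap junctions between sheath and germ cells were higher, among them inx-14 (F07A5.1), with 146 and 149.6 CPM in adults, against 24.4 and 23.8 CPM at L4 (log2 fold change 2.62), and inx-22 (3.37). Of genes for gonad shape and sheath fate, the protease gene gon-1 (-1.59) and the homeobox gene ceh-18 (-1.37) were lower, and gon-4 (2.16) was higher.

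Most muscle genes were lower in adults. Of 45 genes of the body wall sarcomere 39 were lower, 4 were higher and 2 were not called (median -1.17), and the list took 1.39% and 1.32% of adult counts, against 3.66% and 3.06% of L4 counts. The troponin gene tni-1 (F42E11.4) had 40.8 and 37.5 CPM in adults, against 161 and 158 CPM at L4 (log2 fold change -2.02 with an SE of 0.06). The myosin heavy chain gene unc-54 (F11C3.3) had 519.6 and 468 CPM in adults, against 4861 and 2709 CPM at L4 (log2 fold change -2.94 with an SE of 0.32, adjusted p = 8.3e-04). Its L4 replicates differed by more than its adult replicates, and both L4 values lay above the adult libraries. The second myosin myo-3 (-3.19), paramyosin gene unc-15 (-2.46) and twitchin gene unc-22 (-2.49) fell as well. The actin genes act-1 (-1.05), act-3 (-0.93) and act-4 (-1.26) were lower, and act-2 (0.25) was higher, with close sequence among all of them. Also higher were cpn-1 (1.16), a calponin-related gene, the cofilin gene unc-60 (0.22) and the non-muscle myosin light chain gene mlc-4 (0.31). In pharyngeal muscle 6 of 10 genes were lower, 1 was higher and 3 were not called (median -0.73), and without adult replicate 2 there were 3 that were lower. The pharyngeal myosin gene myo-2 (T18D3.4) had 15.7 and 12.3 CPM in adults, against 151 and 66.6 CPM at L4 (log2 fold change -2.97 with an SE of 0.62, adjusted p = 0.0329). It lost the call without adult replicate 1 (adjusted p = 0.183) or adult replicate 2 (adjusted p = 0.221), and without L4 replicate 1 its log2 fold change was -2.27. Calls for tnt-4 (-0.82) and myo-5 (-0.58) were lost without adult replicate 2 too. The list of pharyngeal gland and cuticle genes had 45 lower and 20 higher of 72 tested (median -1.19). It takes in pqn genes such as pqn-51 (1.34), a class named for prion-like sequence and not for the pharynx. Of 50 pqn genes tested 26 were lower and 19 higher (median -0.31), whereas all 13 abu genes, a class of the pharyngeal cuticle, were lower (median -5.17). Among the latter, abu-13 (F57B9.9) had 1.45 and 1.69 CPM in adults, against 259 and 240.0 CPM at L4 (log2 fold change -7.30).

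Most neuronal genes were lower. Of 32 pan-neuronal and synaptic genes 26 were lower, 5 were higher and 1 was not called (median -1.03). The synaptic vesicle priming gene unc-13 (ZK524.2) had 13.9 and 11.9 CPM in adults, against 39.8 and 38 CPM at L4 (log2 fold change -1.60), and the vesicle genes snt-1 (-1.10) and rab-3 (-1.03) were lower by smaller factors. In contrast, the octopamine synthesis genes tbh-1 and tdc-1 rose, which in the worm are expressed in a few neurons and in the gonadal sheath. The gene tbh-1 (H13N06.6) had 253 and 244 CPM in adults, against 4.61 and 2.63 CPM at L4 (log2 fold change 6.10 with an SE of 0.18, adjusted p = 2.9e-07). The gene tdc-1 (K01C8.3) had 214 and 215 CPM in adults, against 22.5 and 22.1 CPM at L4 (log2 fold change 3.27 with an SE of 0.06). The stages did not overlap for either, and these genes outweigh the falls in the sum of the list, which was 1039 and 991.3 CPM in adults, against 891.1 and 831.3 CPM at L4. The rises of snb-1 (0.48) and unc-11 (0.47) were below 2-fold. Neuropeptide genes had 80 lower, 4 higher and 23 not called among 107 tested (median -0.96). The largest fall was in nlp-30 (-5.89), which with nlp-33 (-3.58) and nlp-34 (-4.86) encodes antimicrobial-type peptides of the epidermis. The gene nlp-27 (B0213.2) shares the first part of its sequence name with nlp-30 (B0213.5) and nlp-34 (B0213.17) but rose. It had 98.9 and 94 CPM in adults, against 7.95 and 8.27 CPM at L4 (log2 fold change 3.57). Insulin-like peptide genes were low at both stages, with 17 lower and 3 higher of 26 tested (median -1.04). The highest rise was in ins-34, with 141 counts in adults and 2 at L4 (ratio 74.4, interval 20.2 to 620), and ins-27 (-2.19) fell.

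Most intestinal genes other than vitellogenins were lower. Of 60 tested among 70, 46 were lower, 2 were higher and 12 were not called (median -0.75). The cathepsin B gene cpr-5 (W07B8.5) had 35.8 and 35.4 CPM in adults, against 509.7 and 631 CPM at L4 (log2 fold change -4.0 with an SE of 0.11). The digestive protease genes cpr-1 (-1.94) and asp-1 (-1.21), the intermediate filament gene ifb-2 (-1.27) of the gut terminal web and the saposin-like gene spp-13 (-7.22) fell as well. The stages did not overlap for these genes.

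Genes of general metabolism differed less. Of 75 ribosomal protein genes 69 were not called, 4 were higher and 2 were lower, with a median of 0.08 that is 0.22 with RLE scaling and -0.08 with library totals. A pair of genes for the same protein crossed: rpl-11.1 (T22F3.4) had 1535 and 1642 CPM in adults, against 832 and 862 CPM at L4 (log2 fold change 0.91), and rpl-11.2 (F07D10.1) had 556 and 575 CPM in adults, against 1099 and 1188 CPM at L4 (log2 fold change -1.02). Nuclear-encoded respiratory chain genes had 22 lower, 7 higher and 17 not called among 46, with a median of -0.12 (0.01 with RLE scaling). Their lower count was 10 without adult replicate 1 and 11 without adult replicate 2. The ATP synthase subunit b genes crossed in the same way as the rpl-11 pair. The gene asb-1 (F35G12.10), known as the germline form, had 392 and 396 CPM in adults, against 192 and 198 CPM at L4 (log2 fold change 1.01), and asb-2 (F02E8.1) had 263 and 269 CPM, against 543 and 534 CPM (log2 fold change -1.01). In glycolysis 7 genes were higher, 9 lower and 7 not called of 23, with a median of -0.09 (0.05 with RLE scaling). Glyceraldehyde-3-phosphate dehydrogenase is encoded by 4 genes, and gpd-1 (3.12) and gpd-4 (2.85) rose while gpd-2 (-0.75) and gpd-3 (-0.48) fell. The pairs gpd-1 with gpd-4 and gpd-2 with gpd-3 are near-identical, so the values within a pair are uncertain.

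Desaturase, elongase and fatty acid synthesis genes were mostly higher, and genes of fatty acid activation and oxidation were mostly lower. Of 21 desaturase, elongase and fatty acid synthesis genes 15 were higher, 5 were lower and 1 was not called (median 0.46). The stearoyl-CoA desaturase gene fat-7 (F10D2.9) had 53.9 and 47 CPM in adults, against 12.6 and 14.8 CPM at L4 (log2 fold change 1.88), and the elongase gene elo-2 had a log2 fold change of 1.24, while elo-4 (-4.08) and elo-7 (-3.03) fell. Of 68 tested genes of fatty acid activation and oxidation 47 were lower, 14 were higher and 7 were not called (median -0.66). The acyl-CoA synthetase gene acs-20 (F28D1.9), which acts in the lipid barrier of the cuticle, had 9.15 and 9.3 CPM in adults, against 139 and 129.9 CPM at L4 (log2 fold change -3.86), and the acyl-CoA dehydrogenase gene acdh-6 had a log2 fold change of -6.53. Detoxification families were lower more often than higher. Cytochrome P450 genes had 35 lower and 11 higher of 55 tested (median -0.70), and glucuronosyl and glutathione transferases had 58 lower and 23 higher of 99 (median -0.59), with ugt-1 (-2.63) falling and ugt-63 (5.10) rising.

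Proteasome genes were mostly higher, and heat shock chaperone genes moved in both directions. Of 33 proteasome genes 32 were higher and 1, rpn-6.2 (-0.64), was lower (median 0.68). None of the rises reached 4-fold, and their interquartile range of 0.60 to 0.76 was narrow. The lid subunit gene rpn-9 (T06D8.8) had 338 and 342 CPM in adults, against 173 and 173 CPM at L4 (log2 fold change 0.98). Of 59 heat shock chaperone genes tested 35 were higher, 18 were lower and 6 were not called (median 0.33). Within the list, dnj genes (J-domain co-chaperones) had 21 higher of 29 tested, while hsp genes had 12 lower and 5 higher of 20 tested, with a median of -0.62. The stress-induced gene hsp-16.2 (-2.98) and the endoplasmic reticulum chaperone gene hsp-3 (-1.38) fell. The small heat shock protein gene sip-1 (F43D9.4) stood out by size, with 891 and 889 CPM in adults, against 29.8 and 22.2 CPM at L4 (log2 fold change 5.10 with an SE of 0.14), and hsp-43 had a log2 fold change of 2.33.

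The large nematode gene families had members in both directions. Of 184 F-box genes tested among 390, 75 were higher and 52 lower, with a median of 0.07 (-0.08 with library totals). The gene fbxa-215 (Y45F10C.3) had 209 and 206 CPM in adults, against 11.9 and 10.7 CPM at L4 (log2 fold change 4.20). Of 154 C-type lectin genes tested 70 were lower and 51 higher (median -0.41). The gene clec-87 (C25A1.8) had 934 and 919 CPM in adults, against 21.6 and 18 CPM at L4 (log2 fold change 5.55), and clec-88 (5.26) rose too. Nuclear hormone receptor genes were lower more often than higher, with 98 lower, 27 higher and 65 not called of 190 tested (median -0.51), and the embryonic receptor gene nhr-2 (C32F10.6) rose to 16.5 and 16 CPM in adults, against 0.41 and 0.415 CPM at L4 (log2 fold change 5.28). Of 67 homeobox genes tested 40 were lower, 20 were higher and 7 were not called (median -0.85). The maternal posterior gene pal-1 (C38D4.6) had 125 and 126 CPM in adults, against 13.6 and 12.2 CPM at L4 (log2 fold change 3.28 with an SE of 0.07). The ONECUT class genes ceh-38 (1.72), ceh-39 (3.88), ceh-41 (1.19) and ceh-21 (2.33) rose with it, and ceh-48 (-1.77) of the same class fell. Their relative ceh-49 had 980 counts in adults and 2 at L4 (ratio 517, interval 143 to 4270, counting error only). Genes of neuron and tissue identity, such as unc-86 (-2.35), ceh-10 (-2.06) and mab-5 (-1.63), were lower, and mab-5 had 1.65 and 1.75 CPM in adults, against 4.85 and 5.71 CPM at L4.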

How the data were processed

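RNA of N2 adults and N2 L4 larvae was sequenced after poly(A) selection, per the labels' protocols. The authors deposited estimated counts per gene, which need not be whole, and log2 (FPKM + 1) values per gene. Bowtie 1.0.1, RSEM 1.2.15, SAMtools 0.1.19 and build ce10 are named in the submitters' processing notes, and whether counting used strand is not given in these sources. The tables hold 18 columns, of which 10 were not used because their names could not be tied to 1 sample.

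Estimated counts were rounded and fitted with edgeR 4.0.16 (R 4.3.3), using TMM scaling, filterByExpr (minimum count 10, minimum total 15) and the quasi-likelihood test with robust dispersion, over the 4 libraries only. P-values were adjusted by Benjamini-Hochberg over all 15839 genes tested. The fold change is adult over L4, and its SE is its size over the square root of F. CPM and FPKM are on linear scales, with the FPKM taken back from the deposited log2 values. With 2 libraries per stage, exact tests of a single gene cannot pass the threshold, so calls rest on the fit. For genes with 1 to 3 counts at a stage the ratio has an exact 95% binomial interval, and for genes with none a floor of 3 counts per library. The fit was run on simulated data in which few genes changed, as many up as down. Most genes were called in the real data, so that simulation does not check the scaling.

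Symbols came from RefSeq's gene table, which matched 44080 of 45461 rows, and no coordinates were used since its build differs. No member of the mitochondrial genome list matched, and these genes were not analysed here. The members and lists were chosen with earlier results of these data known. Genes named were the 12 with the largest fold changes per direction and 3 more per direction known by sequence name alone, among those averaging at least 20 CPM at the higher stage. Added to these were up to 4 per list by adjusted p, all members of lists of up to 12, the 10 most abundant per stage and the 12 largest CPM differences per direction. Other genes in the text are list members chosen for their known roles after their values were seen. Alternatives were RLE scaling, library totals, other filters, DESeq2 1.42.0, limma 3.58.1 on the deposited values, 8 libraries of both genotypes, a minimum change of 1.5-fold, a replicate block, no ribosomal RNA genes, and each library left out. The labels state no pairing of replicates, and over all genes the deviations of same-numbered libraries from their stage means had a correlation of 0.00892. Such a value does not exclude pairing in some genes, and all 6 vitellogenins had replicate 1 above replicate 2 at both stages.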

Additional observations from a re-analysis of the deposited data

How the results depend on the processing

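The total of 13099 called genes was between 9745 (minimum change of 1.5-fold) and 13779 (no filter) in all alternatives, and leaving out 1 library gave 12052 to 12808. The share of called genes that were higher in adults was 46.6%, with a range of 42.1% to 52.2%. With the replicate number as a block 13071 genes were called, 6094 higher and 6977 lower, and it kept 12979 of the calls. No named gene was called in the opposite direction, and 241 of 261 kept their call in every alternative run. For 45 of 69 list counts no alternative moved the count by over 1.5 times.

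For the other list counts the alternative's value is set against the count given in the report. A minimum change of 1.5-fold gave 3 against 5 yolk uptake genes higher, 14 against 24 major sperm proteins, 8 against 18 related sperm families, 2 against 5 heterochronic genes, 8 against 20 pharyngeal gland and cuticle genes and 2 against 5 neuronal genes. It gave 2 against 7 respiratory chain genes higher and 5 against 22 lower, 5 against 9 glycolysis genes lower, 6 against 15 desaturases and elongases higher, and 8 against 14 fatty acid oxidation genes higher with 31 against 47 lower. It also gave 12 against 23 UGT and GST genes higher, 20 against 35 heat shock genes higher and 10 against 18 lower, 20 against 32 proteasome genes higher, and 13 against 27 nuclear hormone receptors higher with 59 against 98 lower. Lower members of the related sperm families numbered 10 with library totals, 10 with limma without a filter and 11 with limma, against 6. Early embryo genes higher numbered 9 with a minimum of 1 CPM and 11 with limma, against 22. Male markers lower numbered 4 with a minimum of 1 CPM, 3 with DESeq2, 4 with limma and 3 to 6 with 1 library left out, against 7. Pharyngeal muscle genes lower numbered 3 to 6 with 1 library left out, against 6. Pharyngeal gland and cuticle genes higher numbered 13 with limma without a filter, against 20. DESeq2 gave 9 lower insulin genes against 17, 34 lower F-box genes against 52, and 11 lower respiratory chain genes against 22. RLE scaling gave 11 higher respiratory chain genes against 7 and 10 lower against 22, and leaving out 1 library gave 10 to 23 lower. Library totals gave 14 lower glycolysis genes against 9. A minimum change needs a larger effect by construction, and the cause of the others was not tested. With 2 libraries per stage, 2 residual degrees of freedom limit the precision of every spread.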

Other observations

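Genes that share a lettered name form classes, and 148 classes had at least 10 tested members. The 10 classes with the largest shares of members higher in adults begin with 3 in which every tested member was called. All 11 rpb genes (subunits of RNA polymerase II, median log2 fold change 0.98), all 13 algn genes (protein glycosylation, 0.92) and all 11 ints genes (the Integrator complex, 1.21) were higher. They were followed by 24 of 25 npp genes (nuclear pore, 1.10), 19 of 20 mdt genes (Mediator, 1.31), 16 of 17 taf genes (factors of general transcription initiation, 1.40), 12 of 13 prp genes (splicing, 0.90), 12 of 13 rbm genes (RNA-binding motif proteins, 0.86), 12 of 13 rpn genes (proteasome, 0.76) and 23 of 25 eif genes (translation initiation, 0.34). The last had the smallest median of these 10 classes.

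The 10 classes with the largest shares of members lower in adults begin in the same way. All 13 abu genes (pharyngeal cuticle, median -5.17), all 14 bus genes (named for altered surface and bacterial infection, -5.53) and all 11 irld genes (-1.70) were lower. They were followed by 11 of 12 zig genes (secreted immunoglobulin proteins of neurons, -1.42), 10 of 11 nspg genes (-0.62), 9 of 10 exc genes (the excretory canal, -1.03), 9 of 10 vab genes (body shape, -1.70), 27 of 30 flp genes (FMRFamide-like neuropeptides, -0.95), and 22 of 25 in both the cutl (cuticlin-like, -2.93) and nep (neprilysin peptidase, -2.02) classes. Over all genes tested 38.5% were higher, 44.2% were lower and the median was -0.15. These shares were chosen for being the largest and carry no test.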
